A study of Rattus norvegicus with 40 samples.

Results

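The genes of fatty acid oxidation and ketone body metabolism were followed through late gestation in rat intestine and lung. The set was a list of 37 gene symbols, and a gene was measured where the platform annotation gave its symbol to a probe set, the short oligonucleotides that together report 1 transcript. Of the 37 genes, 36 were measured, by 52 of the 31099 probe sets on the array, among 14217 genes in all, and Acaa1a was not analysed here. Where a gene had several probe sets, the one with the highest mean over all arrays was used. By role, the 36 genes comprised 3 for fatty acid activation, 5 of the carnitine shuttle, 9 of the mitochondrial beta-oxidation spiral, a mitochondrial isomerase and a mitochondrial reductase, 3 of electron transfer, 7 of peroxisomes, 3 of ketone body metabolism and 4 of regulation.

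Whole intestine and whole lung were taken from Wistar rat embryos on gestational day 16 (E16) or 20 (E20), with no treatment named, and each of the 4 groups was run on 10 Affymetrix arrays. From intestine 1 µg of total RNA was labelled and from lung 2 µg, so tissue and amount labelled cannot be told apart. The labels mention frozen tissue of several siblings and the design text 10 embryos at each age, which does not settle whether an array holds RNA of 1 embryo, so p-values rest on the spread among these arrays, part of which may be technical. All levels are log2 of the deposited intensity, and changes are differences of log2 values.

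A long-chain fatty acid is first joined to coenzyme A, then carried into mitochondria as a carnitine ester, and there shortened step by step by a dehydrogenase, a hydratase, a second dehydrogenase and a thiolase. Electrons leave through the electron transfer flavoprotein, and the acetyl-CoA formed feeds the citric acid cycle or, mainly in liver and in the suckling intestine of rodents, ketone bodies. Peroxisomes carry out a parallel oxidation of very long and branched chains, and the nuclear receptor PPARA and its coactivator PGC-1α are textbook regulators of both routes.

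At E20 all 8 intestinal epithelial genes were lower in lung than in intestine and all 8 lung epithelial genes higher (limma adjusted p under 0.05 and at least 2-fold). At E16 only 3 of 8 in each list differed in that direction, and none in the other. In intestine 2 of the 8 lung epithelial genes, Slc34a2 and Abca3, rose between E16 and E20. Cdx2, an intestinal transcription factor, had a median of 7.84 in intestine at E16 and 12.11 at E20, against 6.61 and 6.62 in lung. Sftpc, a surfactant protein of alveolar cells, had medians of 11.26 and 14.84 in lung and of 6.28 and 6.37 in intestine. Across intestine arrays the mean of 8 intestinal epithelial genes lay between 6.98 and 8.41 at E16 and between 12.02 and 12.47 at E20, and all 8 rose. The mean of 7 erythroid genes lay between 11.45 and 12.68 and then between 7.25 and 8.17 in intestine, where all 7 fell, and between 11.09 and 11.73 and then between 8.49 and 9.63 in lung, where 5 of 7 fell. The mean of 12 liver genes lay between 6.73 and 8.35 and then between 8.13 and 9.21 in intestine, where 4 of 12 rose. These were Cps1, which intestinal epithelium also expresses, Fga, Serpina1 and F2. The intestine medians went from 5.72 to 10.07 for Fga, from 7.03 to 10.24 for Serpina1 and from 4.91 to 8.27 for F2. Albumin ranged from 5.71 to 11.77 across intestine E20 arrays. In lung the liver mean lay between 6.61 and 7.43 and then between 6.27 and 8.17, and 1 of 12 genes, albumin, fell. Lung albumin ranged from 8.20 to 11.23 (median 10.50) at E16 and from 5.44 to 12.29 (median 6.35) at E20. Of 7 brown fat genes, 1 in intestine at E20 and 2 in lung at E20 had a mean above 7.89, the median of all log2 values, and 1 of 7, Prdm16, rose in each tissue, from a median of 6.32 to 8.53 in intestine and from 6.85 to 8.36 in lung. Ucp1, which defines brown fat, and Adipoq, which defines fat cells, stayed below 7.89 on every array. Of 5 fat cell genes, 1 had a mean above 7.89 in each group, Lipe, with group medians from 9.16 to 9.45. Cfd, another of the 5, reached at most 7.91, in intestine at E20. Its age changes of 0.51 in intestine and 0.68 in lung were short of 2-fold. In whole tissue, fewer cells of a type and less RNA per cell cannot be told apart. The part of these markers in the results below was not tested. By more than 0.75 over the median of their group, 11 arrays held raised liver, exocrine pancreas, cardiac muscle or mesothelial transcripts, and lung E16 replicates 5 and 9 stood furthest out, with a cardiac mean of 10.63 and 10.91 against 7.21 to 8.61 in the other lung E16 arrays.

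In intestine, 12 of the 36 genes rose between E16 and E20 (33.3%) and none fell, where rose means a limma adjusted p under 0.05 and at least a 2-fold change. Over all genes tested, 8.79% rose and 6.26% fell. The 12 were Ehhadh, Acadm, Acaa2, Hadh, Acadl, Cpt1a, Bdh1, Etfb, Acads, Cpt2, Hadha and Etfdh, and 10 of them belong to the mitochondrial steps. The median change was 0.79 over the 36 genes and -0.09 over all genes. In lung, 1 of the 36 rose, Acsl4, and none fell, where 7.15% of all genes rose and 4.63% fell. The lung median was 0.13, against -0.01 over all genes, and no gene of the set rose in both tissues.

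**Figure D1:**
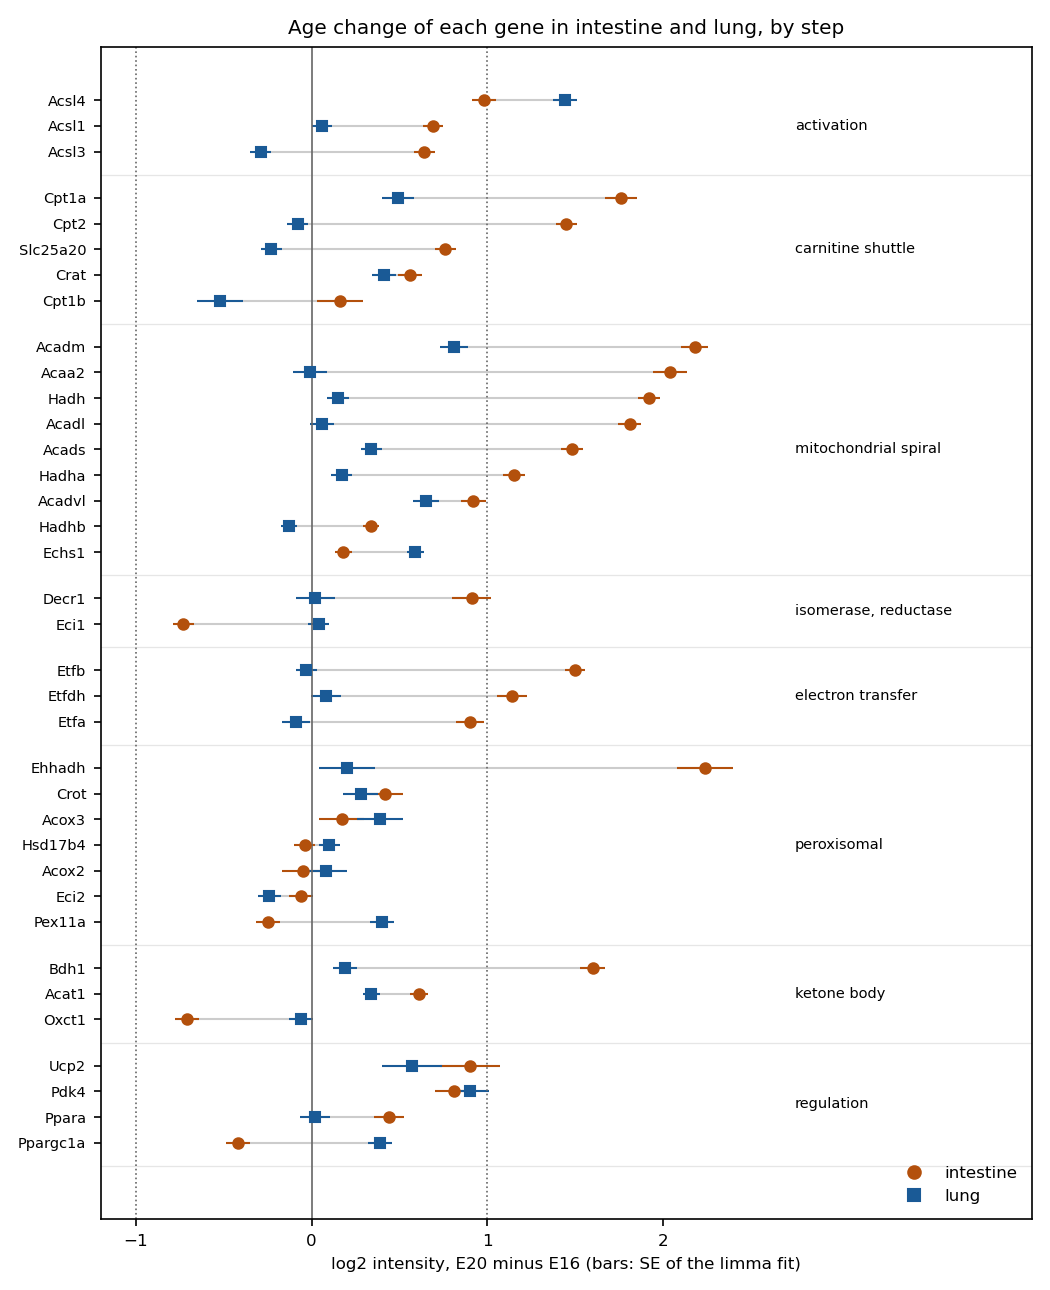
Change between E16 and E20 for each of the 36 genes, grouped by step, with the log2 difference on the horizontal axis, circles for intestine, squares for lung and bars for the standard error of the fit. The dotted lines mark a 2-fold change. The 12 circles beyond the right dotted line are genes of the carnitine shuttle, the spiral, electron transfer, Ehhadh and Bdh1, and the lone square beyond it is Acsl4.

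Without the fold minimum, 27 of the 36 genes were higher in intestine at E20 (29.5% of all genes were) and 4 were lower (41.9% of all genes): Eci1, Oxct1, Ppargc1a and Pex11a. In lung, 17 were higher (33.0% of all genes) and 5 lower (33.7%). The arrays of both ages did not overlap for 25 of 36 genes in intestine (69.4%), where 37.6% of all genes did not overlap. They did not overlap for 5 of 36 in lung (13.9%), below the 31.1% of all genes. Without the 11 arrays with raised transcripts of other tissues, the counts were again 12 in intestine and 1 in lung. Those arrays were picked against the median of their own group, so transcripts raised across a whole group stayed in.

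The long-chain acyl-CoA synthetases, which join fatty acids to coenzyme A, are represented in the set by Acsl1, Acsl3 and Acsl4, and by their brightest probe sets none of the 3 rose 2-fold in intestine. Acsl4, which prefers arachidonic acid, lay between 10.06 and 10.37 (median 10.23) in lung at E16 and between 11.55 and 11.81 (median 11.66) at E20. The groups were far apart, and the change was 1.44 (SE 0.068, limma adjusted p 1.03e-21), a 2.71-fold rise. In intestine Acsl4 went from a median of 9.86 (9.67 to 10.11) to 10.83 (10.58 to 11.21), again without overlap, and its change of 0.98 fell just short of 2-fold (SE 0.068, adjusted p 1.84e-16). That value passed 2-fold when 1 of 4 arrays was left out (1.01 at most) and when arrays were centred on their median (1.03). Acsl1, the main synthetase of liver and muscle, had a value of 0.69 in intestine and 0.06 in lung, and a second Acsl1 probe set, with a mean of 9.30 beside 9.61, gave 2.18 and -0.03. Acsl3, an enzyme of lipid droplets and the endoplasmic reticulum, had a value of 0.64 in intestine and -0.29 in lung.

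In the carnitine shuttle, the enzymes on both sides of the inner membrane rose in intestine, 2 of 5 members, with a median of 0.76 over the 5. Cpt1a, the liver form of the outer membrane transferase that controls entry of long chains, lay between 8.97 and 9.42 (median 9.19) in intestine at E16 and between 10.75 and 11.21 (median 10.97) at E20. No array of one age reached the other, and the rise was 1.76 (SE 0.091, limma adjusted p 9.52e-21), or 3.39-fold. Its lung levels overlapped, from 9.11 to 9.61 (median 9.39) at E16 and from 9.40 to 10.33 (median 9.87) at E20, with a change of 0.49 (SE 0.091, adjusted p 1.02e-05). The lung change was smaller than the intestine change by -1.27 (SE 0.13, adjusted p 1.72e-11).

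Cpt2, the transferase on the matrix side, ran from 8.70 to 9.06 (median 8.78) and then from 10.08 to 10.49 (median 10.27) in intestine, a rise of 1.45 (SE 0.058, limma adjusted p 1.26e-24). In lung it went from a median of 9.33 (9.15 to 9.54) to 9.22 (9.03 to 9.47), and the groups overlapped, with a change of -0.08 (adjusted p 0.206). The difference between tissues was -1.54 (SE 0.082, adjusted p 7.26e-20). Slc25a20, the carrier that swaps acylcarnitine for carnitine across the inner membrane, had a change of 0.76 in intestine, without overlap (SE 0.060, adjusted p 1.05e-14), and of -0.23 in lung. Its difference between tissues of -0.99 lay just short of 2-fold. Crat, which makes acetylcarnitine, had values of 0.56 and 0.41.

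Cpt1b, the muscle form of the outer transferase, was below 7.89 in all 4 group means. It ranged from 6.84 to 7.20 (median 6.99) and from 7.01 to 7.50 (median 7.12) in intestine, which overlap, with a change of 0.16 (limma adjusted p 0.256). In lung it ranged from 6.59 to 8.25 (median 6.86) at E16 and from 6.30 to 6.93 (median 6.47) at E20. The highest lung E16 values were 8.25 in replicate 9 and 7.66 in replicate 5, the same arrays that held the high cardiac transcripts. The lung change of -0.52 (SE 0.13, adjusted p 0.000385) became -0.29 (SE 0.076, adjusted p 0.000815) without them. It was -0.25 (adjusted p 0.00407) without all arrays flagged for raised transcripts of other tissues.

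**Figure D2:**
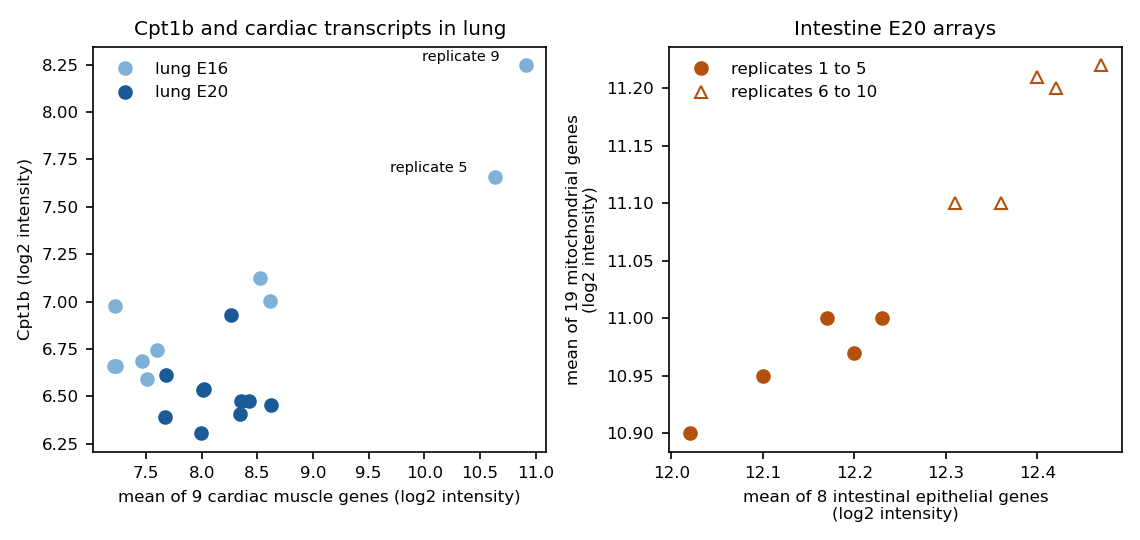
Left, Cpt1b against the mean of 9 cardiac muscle genes on the 20 lung arrays, both in log2 intensity; lung E16 replicates 5 and 9 lie apart at the upper right. Right, the mean of the 19 mitochondrial genes against the mean of 8 intestinal epithelial genes on the 10 intestine E20 arrays, in log2 intensity, where replicates 1 to 5 (filled circles) lie below 11.10 and replicates 6 to 10 (open triangles) at or above it.

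In the mitochondrial spiral, 6 of 9 members rose in intestine, and the median change over the 9 was 1.48. All 9 were higher at E20 with an adjusted p under 0.05. In lung the median was 0.17 and none of the 9 rose 2-fold. The acyl-CoA dehydrogenases open each turn of the spiral and differ in the chain length they accept. Acadm, the medium-chain enzyme, lay between 9.12 and 9.47 (median 9.23) in intestine at E16 and between 10.97 and 11.77 (median 11.45) at E20. The rise was 2.18 (SE 0.077, limma adjusted p 1.25e-26), or 4.54-fold. In lung Acadm went from 9.32 to 9.77 (median 9.42) up to 10.09 to 10.46 (median 10.32), again without overlap, and its change of 0.81 (SE 0.077, adjusted p 2.19e-12) was 1.76-fold. The lung change was below the intestine change by -1.37 (SE 0.11, adjusted p 1.72e-14).

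Acadl, the long-chain enzyme, had intestine levels of 10.61 to 10.94 (median 10.72) and 12.25 to 12.83 (median 12.57), a rise of 1.81 (SE 0.067, limma adjusted p 7.83e-26). Its lung levels overlapped, with medians of 11.12 (10.93 to 11.29) and 11.15 (10.98 to 11.26) and a change of 0.06 (adjusted p 0.48). The difference was -1.75 (SE 0.095, adjusted p 9.60e-20). For Acads, which takes short chains, the intestine arrays ran from 9.10 to 9.50 (median 9.26) and from 10.50 to 10.89 (median 10.79), a rise of 1.48 (SE 0.062, adjusted p 7.07e-24). Lung Acads ran from 9.02 to 9.39 (median 9.27) and from 9.35 to 9.79 (median 9.57), a change of 0.34, and the difference was -1.14 (SE 0.088, adjusted p 7.66e-15).

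Acadvl, the very-long-chain enzyme bound to the inner membrane, passed the fold minimum in neither tissue. Its changes of 0.92 in intestine (SE 0.072, limma adjusted p 6.42e-15) and 0.65 in lung (SE 0.072, adjusted p 1.68e-10) both had no overlap between ages. The difference between them was -0.27 (SE 0.10, adjusted p 0.0171).

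Echs1, the hydratase of short chains, was the member of the spiral whose lung change exceeded the intestine change. It ranged from 10.93 to 11.24 (median 11.01) in lung at E16 and from 11.40 to 11.79 (median 11.64) at E20, without overlap, a change of 0.59 (SE 0.047, limma adjusted p 1.54e-14). In intestine the ages overlapped, with a change of 0.18, and the difference was 0.41 (SE 0.067, adjusted p 8.90e-07).

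Hadh, the short-chain hydroxyacyl-CoA dehydrogenase, had the narrowest arrays within intestine E16 among the genes that rose. It lay between 10.62 and 10.89 (median 10.71) at E16 and between 12.37 and 12.96 (median 12.66) at E20. The rise of 1.92 (SE 0.063) had the smallest adjusted p of the set (limma, 8.62e-28). In lung it ran from 11.20 to 11.39 (median 11.28) and from 11.14 to 11.66 (median 11.46), which overlap, with a change of 0.15 (adjusted p 0.0303) and a difference of -1.77 (SE 0.089, adjusted p 8.21e-21). Acaa2, the mitochondrial thiolase that releases acetyl-CoA, had intestine levels of 10.39 to 10.99 (median 10.69) and 12.43 to 13 (median 12.75), a rise of 2.04 (SE 0.095, adjusted p 3.09e-22). Its lung levels lay at medians of 11.31 (10.90 to 11.51) and 11.21 (10.76 to 11.56), and the change was -0.01 (adjusted p 0.958). The difference for Acaa2 was -2.04 (SE 0.14, adjusted p 6.11e-17).

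**Figure D3:**
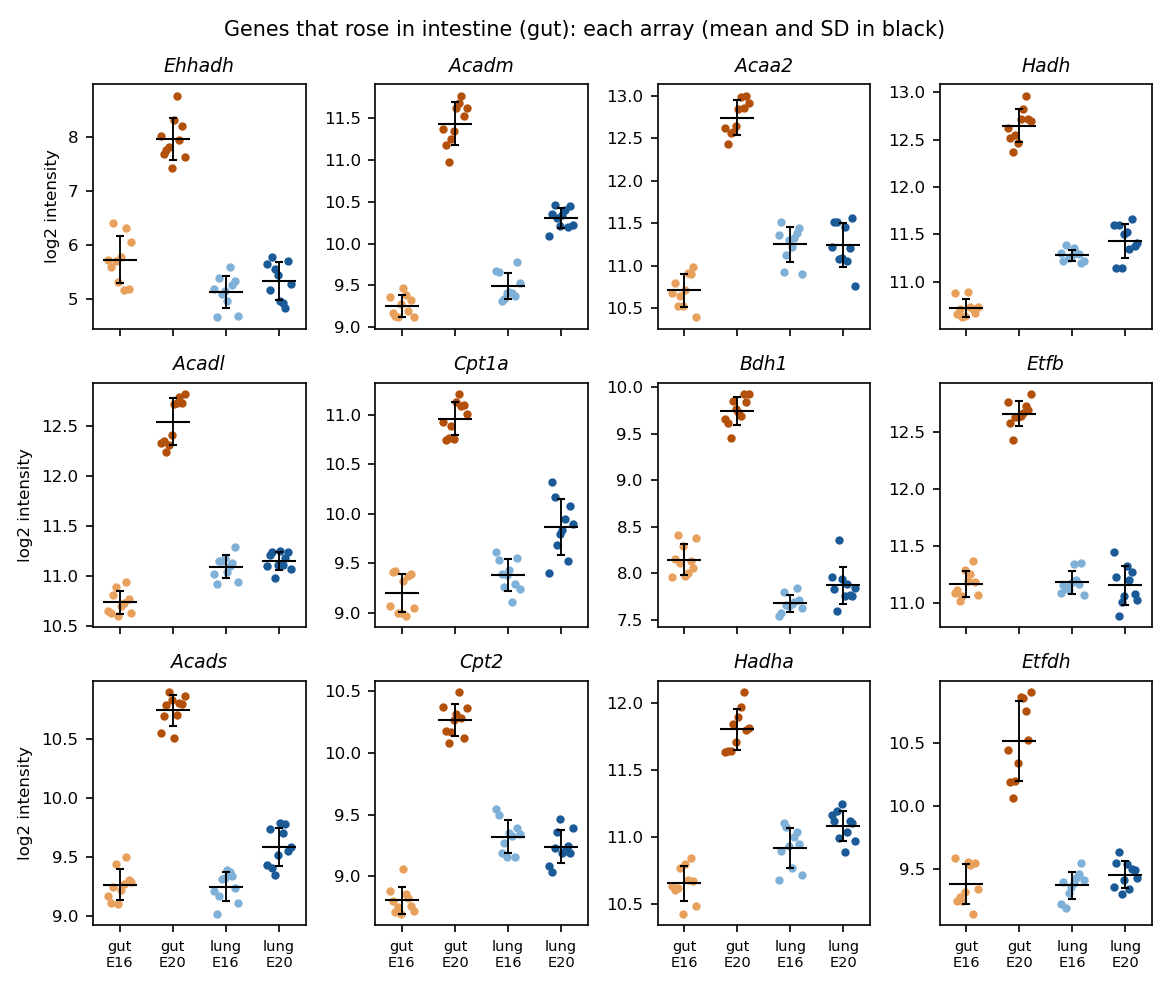
Log2 intensity of the 12 genes that rose in intestine, 1 point per array, with the group mean and SD (n = 10) in black and gut standing for intestine. The intestine E20 points lie above the points of the other 3 groups in every panel.

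Hadha and Hadhb encode the alpha and beta subunits of the mitochondrial trifunctional protein, which handles long chains, and they gave unequal changes. Hadha lay between 10.43 and 10.85 (median 10.66) in intestine at E16 and between 11.64 and 12.08 (median 11.81) at E20, a rise of 1.15 (SE 0.062, limma adjusted p 4.08e-20). Hadhb lay between 11.44 and 11.71 (median 11.61) and then between 11.78 and 12.11 (median 11.93), with a change of 0.34 (SE 0.046, adjusted p 9.48e-09). Neither gene's intestine groups overlapped. In lung the changes were 0.17 for Hadha (adjusted p 0.0167) and -0.13 for Hadhb (adjusted p 0.0127), both with overlap. The Hadha difference between tissues of -0.98 (SE 0.088, adjusted p 5.80e-13) was just short of 2-fold and that of Hadhb was -0.47. The 2 dimmer Hadha probe sets gave 0.14 and 0.07 in intestine.

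The annotated starts of the pair lie close together on opposite strands. In the RefSeq annotation of the GRCr8 assembly, the Hadha start lies at position 31907801 of chromosome 6 on the plus strand and the Hadhb start at 31907500 on the minus strand, with 300 bases between them. The 250 bases before the Hadha start (chr6:31907551-31907800, plus strand) and before the Hadhb start (chr6:31907501-31907750, minus strand) share 200 bases. They are shown because the genes share these bases while their measured changes were 1.15 and 0.34, a difference between genes that was not tested; those of Hadh (chr2:222504447-222504696, minus strand) and Ehhadh (chr11:92746159-92746408, plus strand) are shown as members with large intestine rises. Capitals mark the GC box GGGCGG and the motif CCAAT, in either orientation.
Hadha: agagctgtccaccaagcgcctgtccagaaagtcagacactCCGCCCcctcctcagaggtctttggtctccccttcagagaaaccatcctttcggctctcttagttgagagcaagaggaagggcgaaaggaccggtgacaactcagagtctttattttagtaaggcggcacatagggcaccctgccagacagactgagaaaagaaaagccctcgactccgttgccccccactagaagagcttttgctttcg
Hadhb: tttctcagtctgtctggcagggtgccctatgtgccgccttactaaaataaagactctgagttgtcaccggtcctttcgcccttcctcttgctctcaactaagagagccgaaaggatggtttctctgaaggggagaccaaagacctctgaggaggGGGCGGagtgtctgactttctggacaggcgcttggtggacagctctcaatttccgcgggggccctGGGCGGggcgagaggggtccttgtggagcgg
Hadh: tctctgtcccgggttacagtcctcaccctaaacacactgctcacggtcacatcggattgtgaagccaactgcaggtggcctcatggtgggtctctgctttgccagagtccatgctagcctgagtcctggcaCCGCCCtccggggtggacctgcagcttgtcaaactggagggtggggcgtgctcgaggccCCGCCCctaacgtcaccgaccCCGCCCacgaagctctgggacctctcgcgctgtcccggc
Ehhadh: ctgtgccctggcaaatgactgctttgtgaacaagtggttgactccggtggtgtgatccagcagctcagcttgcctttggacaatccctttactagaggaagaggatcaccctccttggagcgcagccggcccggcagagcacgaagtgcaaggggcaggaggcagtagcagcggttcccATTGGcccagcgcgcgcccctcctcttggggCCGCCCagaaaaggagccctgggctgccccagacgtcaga

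RefSeq promoter sequences from 250 bases before to 50 bases after the start were matched for 32 of the 36 genes. The GC box GGGCGG (both strands) occurred in 25 of the 32, in 9 of the 10 matched genes that rose in intestine and in 16 of the other 22. It was in 58.6% of the promoters of all genes on the array that were matched. The motif CCAAT (both strands) was in 12 of the 32, against 38.6% of array genes, and the median GC content was 60.4% in the set against 59.2%. A direct repeat that PPARA and other nuclear receptors bind, 2 copies of AGGTCA with 1 base between them on either strand, was in 0 of the 32 windows and 0.0341% of array genes. The oestrogen-related receptor motif TCAAGGTCA was in 0 of 32 and 0.23%. The single motif AGGTCA, contained in both, was in 6 of 32 (Acadvl, Hadhb, Echs1, Eci1, Eci2 and Hsd17b4) and in 13.7% of array genes. It was in none of the 10 matched genes that rose. The GC box, the CCAAT motif and the single motif were added after the longer ones had been searched. A match or its absence describes only these windows.

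The auxiliary enzymes for unsaturated chains had intestine changes of opposite sign. Eci1, the mitochondrial enoyl-CoA isomerase, had levels of 9.94 to 10.34 (median 10.18) at E16 and of 9.25 to 9.57 (median 9.40) at E20. These do not overlap, and the change of -0.73 (SE 0.060, limma adjusted p 3.01e-14) was short of 2-fold. In lung its change was 0.04 (adjusted p 0.531), and the difference of 0.78 (SE 0.085, adjusted p 1.47e-10) ran opposite to that of most of the set. The Eci1 probe set carries the suffix of sets that can hybridise with several transcripts, and a dimmer Eci1 set gave 0.11 in intestine. Decr1, the dienoyl-CoA reductase, had an intestine change of 0.91 (SE 0.11, adjusted p 5.36e-10), without overlap between ages. It spread most of the 36 genes among intestine E20 arrays (SD 0.40), from 11.06 to 12.06, with replicates 8 and 10 at 12.06.

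All 3 electron transfer genes were higher in intestine at E20, and 2 of them rose 2-fold. Etfb, the beta subunit of the flavoprotein that takes electrons from the dehydrogenases, lay between 11.02 and 11.37 (median 11.15) at E16 and between 12.43 and 12.84 (median 12.65) at E20. Its rise was 1.50 (SE 0.058, limma adjusted p 4.08e-25). In lung it had medians of 11.16 (11.07 to 11.35) and 11.14 (10.89 to 11.45), a change of -0.03 (adjusted p 0.704), and the difference was -1.52 (SE 0.082, adjusted p 9.01e-20). Its partner subunit Etfa had an intestine change of 0.90 (SE 0.081, adjusted p 4.61e-13) with no overlap, a lung change of -0.09 and a difference of -0.99, all short of 2-fold.

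Etfdh, which passes those electrons to ubiquinone, ran from 9.14 to 9.59 (median 9.33) and from 10.06 to 10.90 (median 10.48) in intestine, a rise of 1.14 (SE 0.085, limma adjusted p 1.47e-15). Lung Etfdh overlapped between ages, from 9.19 to 9.55 (median 9.39) and from 9.30 to 9.63 (median 9.46), a change of 0.08, and the difference was -1.05 (SE 0.12, adjusted p 3.80e-10). Of the 12 genes that rose, Etfdh was the one whose call depended on which intestine E20 arrays were used. Its change was 0.87 with replicates 1 to 5 of intestine E20 only.

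Of the 7 peroxisomal genes, 1 rose in intestine and none in lung, and their median changes were -0.04 and 0.20. Mitochondrial genes had medians of 1.14 in intestine and 0.06 in lung, with 10 of 19 rising in intestine. This order did not hold in wider lists of other genes. There the intestine medians were 0.63 over 17 peroxisomal genes (3 rose, 1 fell) and 0.43 over 23 mitochondrial genes (7 rose). These lists go beyond both oxidation routes, with Ivd and Pccb among the mitochondrial genes and Cat and Pex19 among the peroxisomal ones. They therefore do not compare the routes alone. Ehhadh, the bifunctional enzyme of peroxisomes and a well-known PPARA target, was the 1 of the 7 that rose. It was dim in 3 groups, from 5.17 to 6.41 (median 5.72) in intestine at E16, from 4.66 to 5.59 (median 5.16) in lung at E16 and from 4.82 to 5.78 (median 5.36) in lung at E20. At E20 in intestine it lay between 7.44 and 8.78 (median 7.89), with no overlap, a rise of 2.24 (SE 0.16, limma adjusted p 3.37e-16). Its E16 level lay near those of Acox2 and Acox3, whose means over all arrays were 5.26 and 5.30, and no detection calls were used, so the size of this change is uncertain. Its lung change was 0.20 (adjusted p 0.269) and the difference was -2.04 (SE 0.22, adjusted p 1.76e-10).

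The other 6 peroxisomal genes had changes of at most 1.33-fold in either tissue. Hsd17b4, the second bifunctional enzyme, which handles branched chains, had values of -0.04 in intestine (limma adjusted p 0.547) and 0.10 in lung (adjusted p 0.124). Crot, the octanoyl transferase that exports shortened chains, had 0.42 and 0.28. Eci2, a peroxisomal isomerase, had -0.06 and -0.24. The oxidases of branched chains and bile acid precursors were dim, with Acox2 at -0.05 and 0.08 and Acox3 at 0.17 and 0.39 (mean levels of 5.26 and 5.30). Pex11a, which promotes peroxisome division, had opposite signs, -0.25 in intestine (adjusted p 0.000799) and 0.40 in lung (adjusted p 1.26e-06), and the difference of 0.66 (SE 0.094, adjusted p 8.08e-08) was short of 2-fold.

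The 3 ketone body genes had intestine changes of different size and sign, and 1 of them rose. Bdh1, which interconverts acetoacetate and hydroxybutyrate, lay between 7.96 and 8.41 (median 8.12) at E16 and between 9.45 and 9.93 (median 9.75) at E20. It rose by 1.60 (SE 0.070, limma adjusted p 2.97e-23), or 3.03-fold. In lung it lay between 7.54 and 7.83 (median 7.67) and between 7.59 and 8.35 (median 7.83), a change of 0.19 (adjusted p 0.0155), and the difference was -1.41 (SE 0.099, adjusted p 4.63e-16). Acat1, the mitochondrial thiolase that acts in both making and using ketone bodies, had intestine levels of 10.81 to 11.15 (median 10.96) and 11.47 to 11.75 (median 11.58). The ages did not overlap and the change was 0.61 (SE 0.050, adjusted p 2.27e-14). Acat1 in lung ran from 10.77 to 11.14 (median 10.94) and from 11.06 to 11.43 (median 11.26), a change of 0.34 (adjusted p 8.81e-08).

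Oxct1, the transferase that tissues need to use ketone bodies and that liver lacks, was lower in intestine at E20. It lay between 10.74 and 11.13 (median 10.98) at E16 and between 9.94 and 10.50 (median 10.34) at E20. The groups do not overlap, and the change of -0.71 (SE 0.070, limma adjusted p 4.97e-12) was short of 2-fold. Within intestine E20, replicates 7 to 10 lay between 9.94 and 10.05 and the other 6 arrays between 10.34 and 10.50. Lung Oxct1 ran from 10.92 to 11.21 (median 11.06) and from 10.78 to 11.23 (median 11.04), with a change of -0.06 (adjusted p 0.44). The difference between tissues was 0.65 (SE 0.099, adjusted p 2.61e-07).

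**Figure D4:**
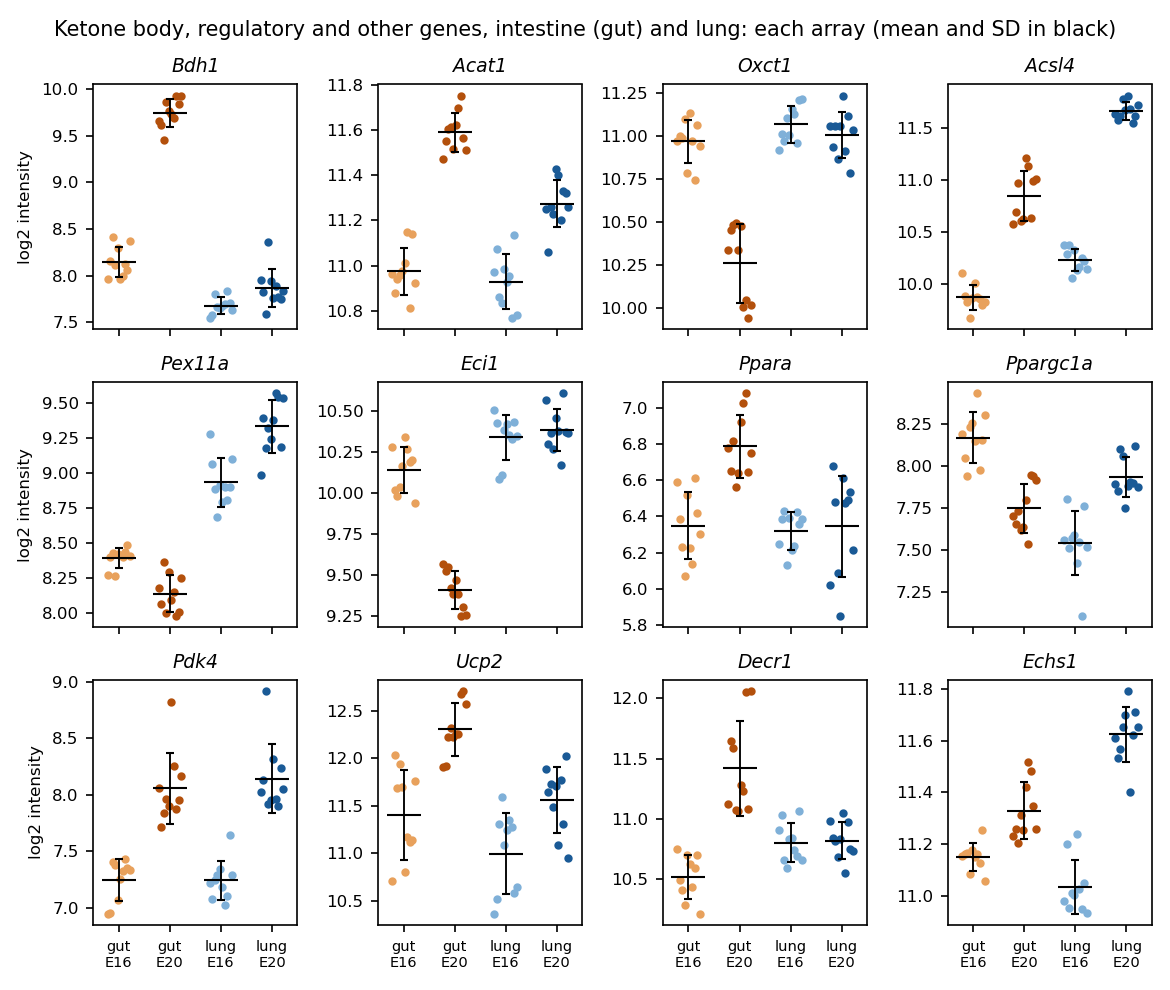
Log2 intensity per array for the 3 ketone body genes, Acsl4, Pex11a, Eci1, the 4 regulatory genes, Decr1 and Echs1, with the group mean and SD (n = 10) in black and gut standing for intestine. The means of Oxct1 and Eci1 are lowest in intestine at E20, those of Acsl4, Pex11a and Echs1 are highest in lung at E20, and Decr1 spreads from 11.06 to 12.06 in intestine at E20.

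None of the 4 regulatory genes rose or fell 2-fold in either tissue. Ppara was below 7.89 in all groups, from 6.07 to 6.61 (median 6.34) and from 6.56 to 7.08 (median 6.76) in intestine. The ages overlapped and the change was 0.44 (SE 0.086, limma adjusted p 2.13e-05). In lung Ppara ran from 6.13 to 6.43 (median 6.37) and from 5.85 to 6.68 (median 6.48), a change of 0.02 (adjusted p 0.817). Its difference between tissues was -0.41 (SE 0.12, adjusted p 0.00311).

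Ppargc1a, which encodes PGC-1α, a coactivator of mitochondrial genes, had opposite signs in the tissues. Intestine ran from 7.94 to 8.43 (median 8.17) at E16 and from 7.54 to 7.94 (median 7.72) at E20, a change of -0.42 (SE 0.069, limma adjusted p 8.78e-07). Lung ran from 7.11 to 7.81 (median 7.56) and from 7.75 to 8.12 (median 7.90), a change of 0.39 (SE 0.069, adjusted p 3.35e-06). The difference of 0.81 (SE 0.098, adjusted p 1.37e-09) was short of 2-fold, and a second Ppargc1a probe set gave -1.01 and 0.89.

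Pdk4, the kinase that shuts off pyruvate dehydrogenase when fat is burned, had a change of 0.81 in intestine (SE 0.11, limma adjusted p 1.49e-08) and of 0.90 in lung (SE 0.11, adjusted p 1.54e-09). The ages did not overlap in either tissue, and the difference was 0.09 (SE 0.15, adjusted p 0.629). A second, dimmer Pdk4 probe set gave -0.25 and -0.14. Ucp2, an inner membrane carrier protein, had values of 0.90 and 0.57, both with overlapping ages. It varied most of the set among intestine E16 arrays (SD 0.48, from 10.70 to 12.04).

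The change with age differed between tissues for 11 of the 36 genes, all with the smaller or more negative change in lung, and for none in the other direction. Over all genes tested, 8.48% were called in that direction and 9.13% in the other. The 11 were the genes that rose in intestine except Hadha, and the median difference was -0.55 over the set against 0.03 over all genes. Without the fold minimum, 22 of 36 were lower in that sense (30.9% of all genes) and 6 higher (35.3%). By step, 5 of 9 spiral genes, 2 of 5 of the carnitine shuttle, 2 of 3 of electron transfer, 1 of 7 peroxisomal and 1 of 3 ketone body genes were among them. This comparison uses the same arrays as the tissue-specific ones and adds no independent evidence.

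At E16, none of the 36 genes was called between lung and intestine, where 2.13% of all genes were called higher in lung and 3.0% lower. Without the fold minimum, 13 were higher in lung (23.8% of all genes) and 9 lower (40.2%) at a limma adjusted p under 0.05. The median difference was 0.01, and arrays did not overlap for 6 of 36 genes (16.7%, against 19.3% of all genes). The differences furthest from 0 were -0.63 for Ppargc1a (SE 0.069, adjusted p 3.49e-10), -0.60 for Ehhadh (SE 0.16, adjusted p 0.00135) and 0.55 for Hadh (SE 0.063, adjusted p 7.70e-10). Pex11a and Acaa2 at 0.54, Cpt2 at 0.51, Bdh1 at -0.47 and Ucp2 at -0.41 followed. Of the 19 mitochondrial genes, 13 lay above 0, that is higher in lung.

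At E20, 13 of the 36 genes were lower in lung than in intestine and 1 was higher, where 8.21% of all genes were lower and 7.91% higher. The 13 became 7 when tested against a 2-fold change itself and 8 with intestine E20 replicates 1 to 5 only, and the 1, Pex11a, was at 0.74 and not called with the mean over probe sets. Arrays did not overlap for 23 of 36 (63.9%, against 34.1% of all genes), and the median difference was -0.63. Without the fold minimum, 24 were lower in lung (42.5% of all genes) and 8 higher (30.6%). The largest were Ehhadh at -2.63 (SE 0.16, limma adjusted p 1.57e-18) and Bdh1 at -1.88 (SE 0.070, adjusted p 9.90e-26). Then came Etfb at -1.51 (SE 0.058, adjusted p 2.99e-25), Acaa2 at -1.50 (SE 0.095, adjusted p 8.40e-18) and Acadl at -1.39 (SE 0.067, adjusted p 6.74e-22). Slc25a20, the acylcarnitine carrier, was called here at -1.34 (SE 0.060, adjusted p 7.84e-23) without having risen 2-fold in intestine, as was Acsl1 at -1.01. Pex11a was the gene that was higher in lung, at 1.19 (SE 0.067, adjusted p 1.05e-19), with lung arrays from 8.99 to 9.57 and intestine arrays from 7.98 to 8.36.

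Several of these values depended on the probe set. Of the 36 genes, 12 had more than 1 probe set, and the others of a gene were dimmer than the one used. A second Bdh1 set gave 3.54 in intestine, beside 1.60, and a second Acsl1 set 2.18, beside 0.69, while the third Acsl1 set gave 0.10. Those of Cpt1a (0.20 beside 1.76), Acaa2 (0.09 beside 2.04) and Hadh (0.52 beside 1.92) gave smaller changes. With the mean over a gene's probe sets, 10 genes rose in intestine, and Cpt1a, at 0.98, and Hadha, at 0.45, were no longer among them. Which set is nearer to the transcript's change was not tested.

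**Figure D5:**
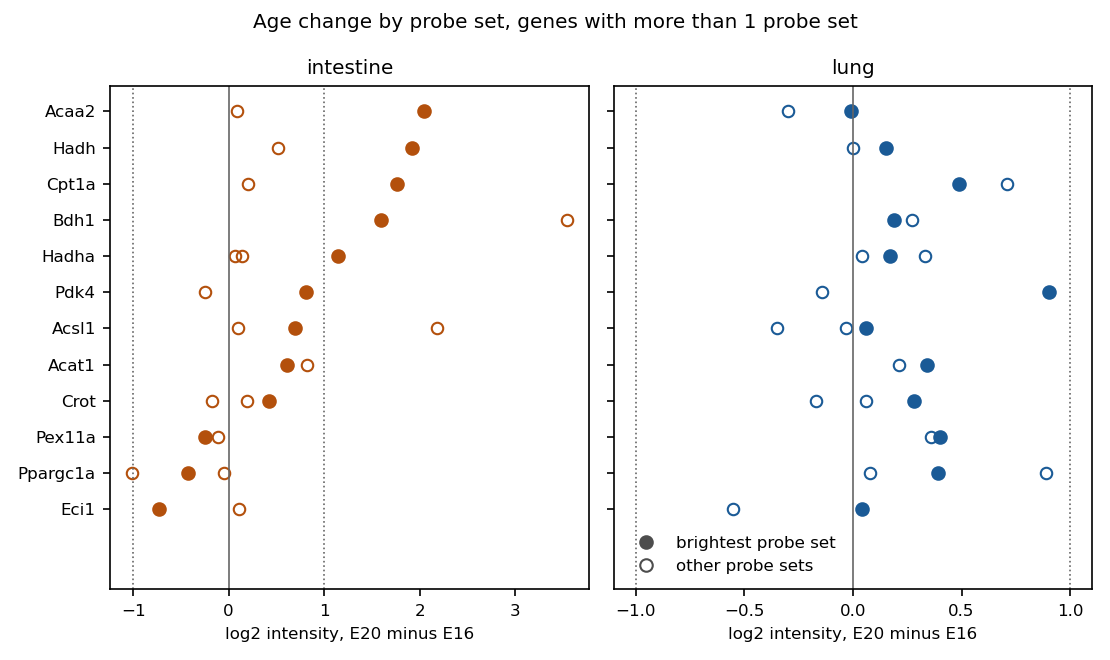
Change between E16 and E20 of every probe set of the 12 genes with more than 1, in intestine (left) and lung (right), as log2 differences, with the brightest set filled and the others open. In intestine the open points of Bdh1, Acat1, Eci1 and Pex11a lie to the right of the filled ones. So does 1 of the 2 of Acsl1 and 1 of the 2 of Ppargc1a. The open points of Acaa2, Hadh, Cpt1a, Hadha, Crot and Pdk4 lie to the left.

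The intestine E20 arrays formed 2 sets by replicate number. The mean of the 19 mitochondrial genes was 10.90 to 11 in replicates 1 to 5 and 11.10 to 11.22 in replicates 6 to 10, and the intestinal epithelial mean was 12.02 to 12.23 and 12.31 to 12.47 in the same sets. The labels do not say what the numbers mark, and the part of the epithelial genes in this was not tested. The sets did not overlap for 8 of 36 genes, all higher in replicates 6 to 10 (22.2%, against 15.6% of all genes in either direction): Cpt1a, Acadm, Acadl, Hadh, Hadhb, Acaa2, Etfa and Etfdh. With replicates 1 to 5 only, 11 genes rose in intestine, and with replicates 6 to 10 only, 16. The split was made after the values were seen.

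Beyond the 36, 87 genes of wider lists, called other pathway genes here, were measured. They were 5 ketone body, 23 mitochondrial, 17 peroxisomal and 13 uptake and activation genes, and 29 regulators and known PPARA targets. Many are not enzymes of oxidation or ketogenesis, so the counts describe these lists and not the pathway itself. In intestine 23 of the 87 rose (26.4%, against 8.79% of all genes) and 2 fell (2.3%, against 6.26%), with a median of 0.37. By list, in the order given, 1, 7, 3, 4 and 8 rose. In lung 10 rose (11.5%, against 7.15%) and 1 fell (1.15%, against 4.63%), with a median of 0.22, and 5 of the 10 were among the 23 mitochondrial genes (median 0.33). The 3 largest intestine rises were those of Fabp1, Cidec and Acsl5. Fabp1, the fatty acid binding protein of liver and enterocytes, went from a median of 6.75 to 13.62, a rise of 6.55 (SE 0.12, limma adjusted p 2.06e-36), and Acsl5, the enterocyte synthetase, from 9.51 to 13.97, a rise of 4.32 (SE 0.063, adjusted p 1.77e-39). Slc22a5, the plasma membrane carnitine transporter, rose in both tissues, by 2.80 in intestine and 1.27 in lung, and so did Acss1, a mitochondrial acetyl-CoA synthetase, by 2.65 and 2.00. Among regulators, Hnf4a (4.17) and Ppargc1b (2.17), a relative of Ppargc1a, rose in intestine, as did the PPAR targets Cidec (4.93) and Angptl4 (2.14). The falls in intestine were Pex19, a peroxisome assembly factor, at -1.58, and the fatty acid transporter Cd36 at -1.01.

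In lung the largest rises of these other genes were those of Klf15, Pparg, Acss1 (2.00, above) and Cd36. Klf15, a glucocorticoid-responsive factor, rose by 3.71 (SE 0.13, limma adjusted p 1.06e-25), from a median of 7.59 to 11.25, and Pparg by 2.32 (SE 0.12, adjusted p 1.25e-20), from 5.25 to 7.55. Cd36 rose by 1.98 in lung, and its change differed from that in intestine by 2.99 (SE 0.32, adjusted p 9.15e-11). Acsm5 (1.65), Ech1 (1.17) and Acsl5 (1.08) also rose. The gene that fell in lung was Acat2, a cytosolic thiolase, at -1.23. The age changes of 20 of the 87 genes were lower in lung than in intestine (23%, against 8.48% of all genes). Those of 5 were higher (5.75%, against 9.13%).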

How the data were processed

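Gene expression was measured on 40 arrays, 10 for each tissue and age. The deposited values are normalized intensity summaries on a linear scale, 1 per probe set. Per the submitters' processing notes the authors used RMA, which includes background correction and normalization between arrays; its version, and whether intestine and lung were normalized as 1 set, are not given in the sources used here. RMA is meant to give arrays a common distribution, so changes are relative to the other transcripts. Intensities ran from 6.65 to 39901 and array medians from 220 to 264. The medians still differed by group, with 220 to 234 in lung E16 and 241 to 264 in intestine E16. Log2 was taken here, since the planned test assumed log2 values and the deposited ones were linear. The number of arrays limits the precision, and detection calls were not used.

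Names came from the platform annotation: 20826 had 1 symbol, 436 several and 9831 none. All 36 measured genes had the same symbol in the RefSeq table of GRCr8. Groups were compared with limma 3.58.1 under R 4.3.3, with a mean for each of 4 groups, 5 contrasts, no covariates and Benjamini-Hochberg adjustment over 14217 genes, two-sided. A call needs an adjusted p under 0.05 and a 2-fold change. The code was tested on simulated data. Values are given for members called in an age comparison or in the difference, for up to 8 by size per tissue comparison, for some chosen by role and for up to 8 other pathway genes per comparison; the remaining members were added so that every gene is accounted for. The members and lists were chosen with earlier results of these data known. Alternatives covered scaling, pseudocount, dim genes, probe sets, the fold test, array weights, the variance model, the samples fitted, a replicate block and arrays left out.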

Additional observations from a re-analysis of the deposited data

Results flagged for a closer look

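In 11 genes the change with age differed between tissues in a test of the difference itself, with lung minus intestine changes of -1.27 for Cpt1a, -1.54 for Cpt2, -1.37 for Acadm, -1.75 for Acadl, -1.14 for Acads, -1.77 for Hadh, -2.04 for Ehhadh, -2.04 for Acaa2, -1.52 for Etfb, -1.05 for Etfdh and -1.41 for Bdh1 (limma, adjusted p under 0.05 and at least 2-fold).

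Single arrays stood apart from the other 9 of their group in 9 of 144 sets of a gene and a group, by Dixon's criterion at 95%. Chance gives about 1 in 20 such sets. Pdk4 had 3 of them, at 8.82 in intestine E20 replicate 6 (next 8.26), 7.64 in lung E16 replicate 9 (next 7.34) and 8.91 in lung E20 replicate 3 (next 8.31). Hadhb had 2, at 12.05 in lung E16 replicate 2 (next 11.88) and 11.53 in lung E20 replicate 7 (next 11.67). Cpt1b stood at 6.93 in lung E20 replicate 1 (next 6.61), an array that also held liver transcripts. Cpt2 stood at 9.06 in intestine E16 replicate 6 (next 8.88), Acox2 at 6.17 in intestine E16 replicate 8 (next 5.64), and both of these arrays held exocrine pancreas transcripts; the part of such transcripts in these values was not tested. Bdh1 stood at 8.35 in lung E20 replicate 4 (next 7.96).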

How the results depend on the processing

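Over all alternatives run, no called member changed sign. Among values that were not called and lay near 0, leaving out single arrays took 9 across 0, such as Acox2 in intestine (-0.13 to 0.03) and Acaa2 in lung (-0.05 to 0.05). Counts of called genes stayed within 1.5 times their reported value, except at E20 between tissues. There, 7 genes were lower in lung when tested against a 2-fold change itself and 8 with intestine E20 replicates 1 to 5 only, against 13. The count higher in lung was 0 with the mean over probe sets and 2 with intestine E20 replicates 6 to 10 only, against 1; the latter is Pex11a with Eci1. Leaving out each array in turn gave 12 to 13 genes that rose in intestine, 11 to 14 with a smaller change in lung and 12 to 13 lower in lung at E20, and 1 in the lung age comparison and 1 higher in lung at E20 each time.

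For single genes in a comparison, 30 alternatives lost a call and 21 gained one. Hadha (adjusted p 0.0906) and Etfdh (adjusted p 0.466) in intestine were lost against a 2-fold change itself. Centring each array on its median moved the median of all genes from 0.032 to -0.098 in the difference and from -0.108 to 0.044 at E16. It gave 16 genes in place of 11 for the difference, and at E16 turned the split over all genes from 303 higher and 427 lower to 388 and 345.

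A replicate block left all counts as they were (12 in intestine, 1 in lung, 11 for the difference, 13 lower and 1 higher at E20). The numbers are not known to pair the samples. At E16, 6 of 10 arrays correlated best with their own number in the other tissue (median 0.27), and at E20, 1 of 10 (median -0.09). Intestine and lung arrays of the same number were alike in sex-linked transcripts in 8 of 10 pairs at E16 and 4 of 10 at E20. These values come from the data and not the design. The split of intestine E20 arrays and the leaving out of lung E16 replicates 5 and 9 were chosen after seeing the data. No detection calls were used, so the values of dim genes (Ehhadh, Acox2, Acox3, Cpt1b, Ppara) are the least certain.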

Other observations

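The citric acid cycle, which takes up the acetyl-CoA from oxidation, was measured by 16 genes. In intestine 2 of them rose (12.5%, against 8.79% of all genes), and the median was 0.74. The 2 were Ogdh, at 1.33 (SE 0.10, limma adjusted p 7.00e-15), and Sdha, at 1.24 (SE 0.045, adjusted p 3.60e-26). Of the 16, 14 were higher in intestine at a limma adjusted p under 0.05 without the fold minimum (29.5% of all genes). None was lower (41.9%). In lung none of the 16 rose or fell 2-fold by limma, where 7.15% of all genes rose and 4.63% fell, and the median was -0.27. At a limma adjusted p under 0.05 without the fold minimum, 11 were lower (33.7% of all genes) and 2 higher (33.0%). The change was lower in lung than in intestine for 7 of the 16 (43.8%, against 8.48% of all genes). They were Mdh2 (-1.48), Sdha (-1.28), Cs (-1.24), Idh3a (-1.24), Dlst (-1.22), Ogdh (-1.11) and Sdhb (-1.07).

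Among other pathway genes outside the set, Pex19 in intestine went from 9.73 to 10.18 at E16 down to 8.04 to 8.83 at E20, and in lung from 8.76 to 9.40 to 8.34 to 8.76. Bdh2, a cytosolic relative of Bdh1, rose in intestine by 1.69 (SE 0.12, limma adjusted p 2.86e-16) and had a lung change of -0.53.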
